A study of Mus musculus with 15 samples.

Results

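Fads1, Fads2, Fads3, Elovl1, Elovl2, Elovl3, Elovl5 and Scd2 encode enzymes of the endoplasmic reticulum that put double bonds into fatty acyl chains (the desaturases Fads1 to Fads3 and Scd2) or lengthen them (the elongases, whose symbols begin with Elovl). They were taken by gene name from the deposited count and FPKM tables, as the polyunsaturated and very long chain branch of these enzymes without Elovl6 and Scd1, and make up 8 of the 35275 genes listed. All 8 passed the filter on low counts, which left 13837 genes for testing.

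The livers came from C57BL/6 mice that were fed without restriction (ad libitum, AL), fasted intermittently for 16 h (IF16) or fasted for 24 h every other day (EOD), with 5 libraries in each group. In all 3 groups the mice were 3 months of age before and 6 months after the regimen, which lasted 3 months and was assigned at random. The labels name no genetic change, drug or sex, and give neither the hour of harvest nor the time since the last meal. Whether the libraries of a group came from separate mice is not stated, and p-values measure the spread between libraries, part of which may be technical. The study compared the regimens by the messenger RNA of the left lateral lobe, and the question here is which of the 8 genes differed between them.

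Mammals cannot make linoleate or alpha-linolenate and convert these dietary fats in the liver by alternating desaturation and elongation. Fads2 places the first double bond and Elovl5 lengthens the product. Fads1 then makes arachidonate and eicosapentaenoate, and Elovl2 carries the chains on towards docosahexaenoate, which is finished in peroxisomes. Elovl1 and Elovl3 lengthen saturated and monounsaturated chains, those of Elovl1 serving mainly sphingolipids. Fads3 acts on the sphingoid bases of ceramides, and Scd2 makes monounsaturated fatty acids, as Scd1 does in adult liver. In liver, the insulin-responsive factor SREBP-1c, encoded by Srebf1, is a known activator of several of these genes, and the fasting-responsive receptor encoded by Ppara of others.

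Fads3, Fads2 and Fads1 lie side by side on chromosome 19 of mm10, at chr19:10041548-10059671 (plus strand), chr19:10064164-10101503 (minus strand) and chr19:10182888-10196870 (plus strand). The gaps between them are 4492 and 81384 bp, with 0 protein-coding genes in either gap. Scd2 (chr19:44293676-44306864, plus) and Elovl3 (chr19:46131897-46135307, plus) lie farther along the same chromosome. Elovl1 is at chr4:118428093-118432953 (plus), Elovl2 at chr13:41182495-41220405 (minus) and Elovl5 at chr9:77917364-77984519 (plus). Elovl1 overlaps Cdc20 on the other strand by 53 bp, which had 3 to 17 counts a library, and whether strand was used in counting was not stated. Fads1 holds the microRNA gene Mir6993 and Scd2 holds Mir5114, both on the gene's own strand.

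The 250 bases before the annotated start were read from RefSeq promoter windows (GRCm38.p6) for the 5 members that matched, Fads2, Fads3, Elovl1, Elovl2 and Elovl5. Fads1, Elovl3 and Scd2 did not match. The windows of Fads2 and Fads3 are shown as neighbours of which only Fads3 passed the test in any comparison, that of Elovl1 as the member with the smallest adjusted p, and that of Elovl2 as an elongase with a higher level in EOD. They are at chr19:10101504-10101753 (minus strand), chr19:10041298-10041547 (plus), chr4:118427843-118428092 (plus) and chr13:41220404-41220653 (minus). Capitals mark matches on either strand to CCAAT (the NF-Y box), GGGCGG (the GC box) or CACGTG (an E-box), and each sequence runs 5′ to 3′ on the gene's strand.
Fads2: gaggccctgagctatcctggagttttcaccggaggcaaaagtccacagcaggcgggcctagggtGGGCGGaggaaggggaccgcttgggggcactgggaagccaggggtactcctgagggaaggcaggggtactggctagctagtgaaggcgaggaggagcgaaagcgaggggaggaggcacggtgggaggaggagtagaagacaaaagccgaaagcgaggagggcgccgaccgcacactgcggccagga
Fads3: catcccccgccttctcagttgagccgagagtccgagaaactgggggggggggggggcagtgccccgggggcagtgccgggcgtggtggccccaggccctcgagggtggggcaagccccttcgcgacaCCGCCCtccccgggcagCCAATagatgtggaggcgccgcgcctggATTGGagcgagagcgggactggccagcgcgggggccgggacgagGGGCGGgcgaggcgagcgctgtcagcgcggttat
Elovl1: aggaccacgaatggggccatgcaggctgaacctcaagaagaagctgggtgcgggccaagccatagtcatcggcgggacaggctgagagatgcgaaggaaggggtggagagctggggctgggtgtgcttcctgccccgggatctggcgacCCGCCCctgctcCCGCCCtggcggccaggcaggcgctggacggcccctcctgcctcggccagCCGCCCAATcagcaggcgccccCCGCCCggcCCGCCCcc
Elovl2: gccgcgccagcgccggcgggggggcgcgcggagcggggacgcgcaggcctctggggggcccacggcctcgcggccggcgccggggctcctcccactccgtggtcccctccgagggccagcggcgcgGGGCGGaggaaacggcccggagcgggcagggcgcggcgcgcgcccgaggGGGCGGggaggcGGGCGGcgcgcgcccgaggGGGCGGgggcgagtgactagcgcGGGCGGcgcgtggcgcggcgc

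Fads3 held CCAAT on both strands and a GC box on both strands. Elovl1 held 5 GC boxes on the other strand, 1 of which overlaps its CCAAT, and Elovl2 held 5 GC boxes on its own strand. Fads2 held a single GC box, and Elovl5, not printed, held CACGTG and a pair of CCAAT matches. None of the 7 windows of these genes (Elovl1 and Elovl2 have a second start each) held TCACNCCAC, a sterol regulatory element type, or the nuclear receptor repeats DR1 and DR4, in which AGGTCA follows itself after 1 or 4 bases. A lone AGGTCA was found in the second window of Elovl1. Among the 32851 windows of all genes, 33.9% held CCAAT, 32.7% GGGCGG, 6.02% CACGTG, 14.0% AGGTCA, 1.05% TCACNCCAC, 0.033% DR1 and 0.015% DR4. CCAAT and GGGCGG are thus common among the windows of all genes, though most windows lack each of them. By base composition the windows ranged from 55.6% G and C in Elovl5 to 87.2% in Elovl2, against a median of 52.4% over all windows. A match is a run of letters, not a measured site of binding.

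**Figure D1:**
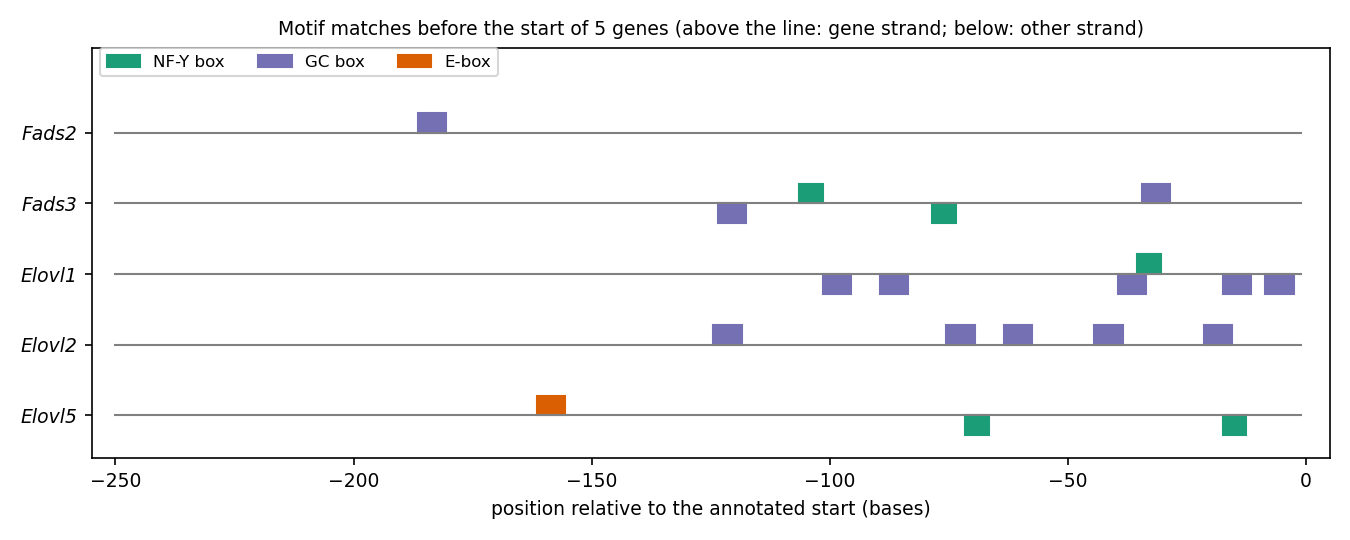
Position of motif matches (x axis, bases relative to the annotated start) in the first promoter window of 5 genes, with boxes above the line for the gene strand and below it for the other strand. Elovl1 and Elovl2 each hold 5 GC boxes, and the CCAAT (NF-Y) boxes lie in Fads3, Elovl1 and Elovl5.

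Library totals ranged from 28129883 to 38147534 counts. The hepatocyte markers fitted the tissue label, with counts for 8 of 8 and a summed level of 90160 to 137200 CPM (read counts after TMM scaling of the libraries). AL replicates 4 and 5 stood apart from AL replicates 1 to 3. Their counts differed from those by 121 to 201 and from each other by 29.7, as chi-square divided by its degrees of freedom, where the 30 pairs within groups gave 23.1 to 201. Saa1, an acute phase gene picked after its values were seen, reached 2807 and 5607 CPM there, against 27.9 to 30.5 CPM in AL replicates 1 to 3. The summed sinusoidal endothelial markers were at 102 to 169 CPM in AL, 211 to 228 in IF16 and 193 to 254 in EOD, and 6 of 8 rose in each fasting group against AL. Of 8 stellate cell markers 3 rose and 1 fell in EOD against AL. In bulk liver, fewer cells of a type and less RNA per cell cannot be told apart, and the part of cell makeup in the results was not tested.

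Against AL, Fads3 and Elovl1 fell in both fasting groups. Fads1 fell in EOD against AL and against IF16, and Elovl2 and Elovl3 were higher in EOD than in AL. Of these results, the fall of Fads3 in IF16 was lost in 12 of 25 alternative settings. The rises of Elovl2 and Elovl3 were lost in 9 and 3 of 25. Fads2, Elovl5 and Scd2 passed the test in no comparison. By the edgeR quasi-likelihood test with Benjamini-Hochberg adjustment over all genes tested, 2 of 8 passed between IF16 and AL, both lower, where 3.5% of all genes passed (1.4% higher and 2.1% lower). Between EOD and AL 5 of 8 passed, 3 lower and 2 higher, where 35.2% of all genes passed, 17.6% in each direction. Between EOD and IF16 1 of 8 passed, where 16.1% of all genes passed (7.96% higher and 8.15% lower), so this count was near the background. The median log2 fold change of the 8 genes was -0.30 between IF16 and AL, -0.49 between EOD and AL and -0.12 between EOD and IF16, against 0, -0.01 and -0.003 over all genes. Both contrasts with AL share the AL libraries.

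**Figure D2:**
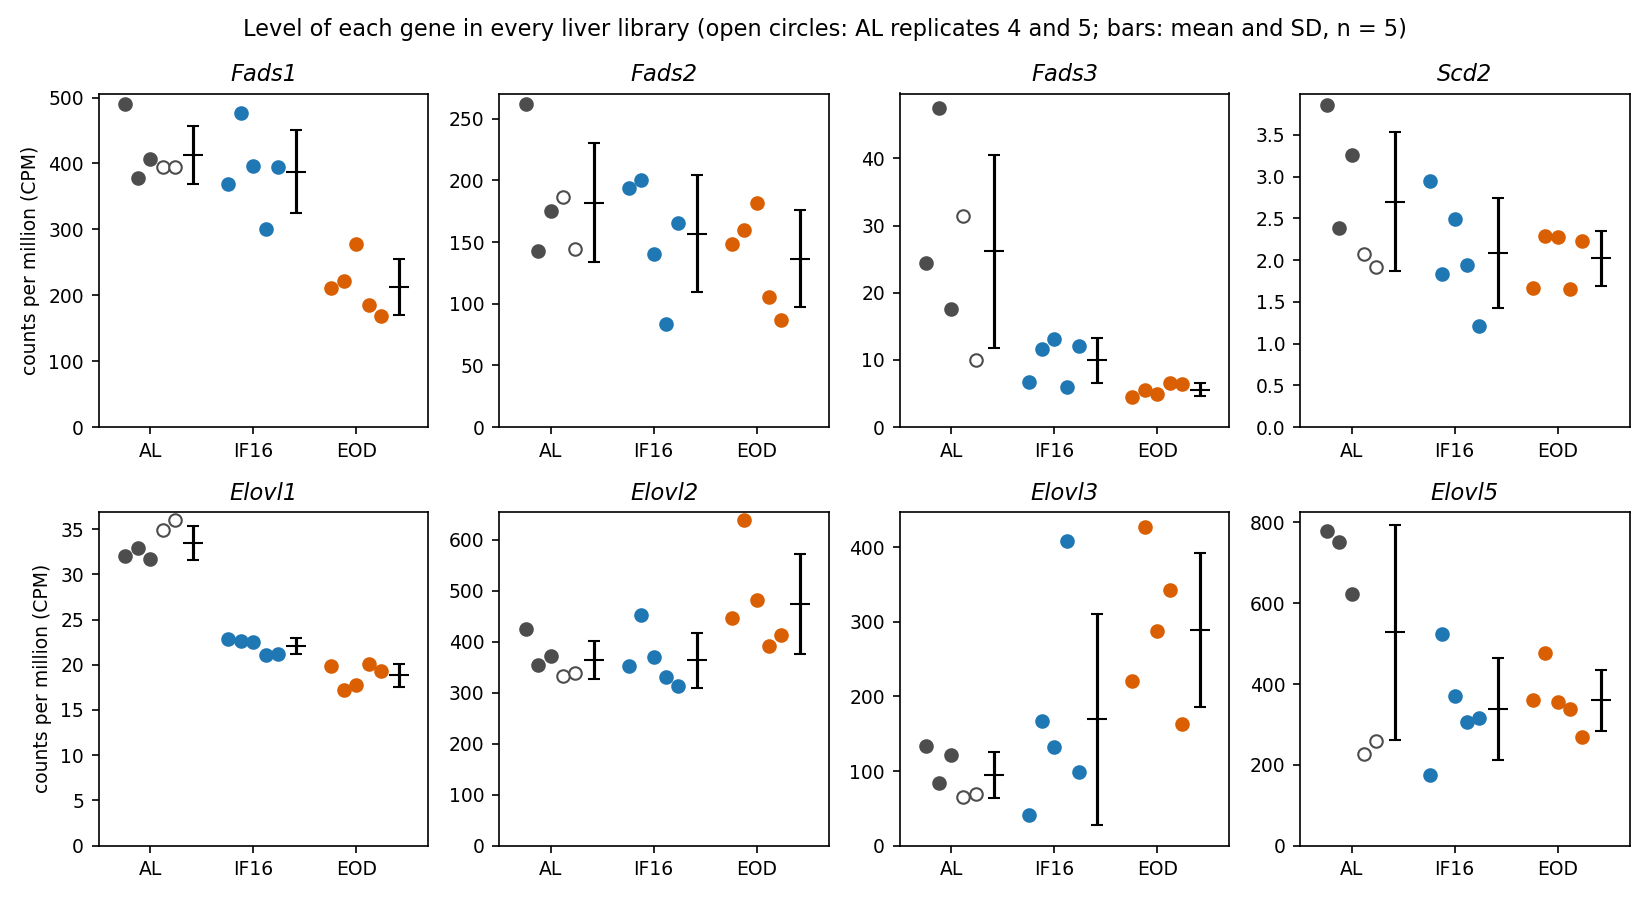
Level of each of the 8 genes (y axis, CPM from 0) in each of 15 libraries, by group, with the mean and SD of 5 libraries as bars and AL replicates 4 and 5 as open circles. The Elovl1 points of AL lie above those of both fasting groups, the Fads1 points of EOD lie below all others, and Elovl5 splits within AL.

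Among the desaturases of the polyunsaturated pathway, Fads1 differed with the regimen and Fads2 was not shown to. Fads1 stood at 490, 377, 406, 394 and 395 CPM in AL, at 369.5, 477, 395.5, 301 and 394.5 CPM in IF16, and at 210.4, 222, 278, 186 and 168 CPM in EOD. Every EOD library lay below every library of AL and IF16, while AL and IF16 overlapped. Groups without overlap were found for 4 of 8 members between EOD and AL (Fads1, Fads3, Elovl1 and Elovl3) and for 2 of 8 between EOD and IF16 (Fads1 and Elovl1), where 18.6% (8.46% higher, 10.2% lower) and 10.9% (4.63% higher, 6.26% lower) of all genes showed this. The EOD mean of 213 ± 42.2 CPM (SD, n = 5) was 1.94-fold below the AL mean of 413 ± 44.5 (log2 fold change -0.95, SE 0.14, adjusted p = 7.93e-05). Against IF16, at 387.5 ± 63.1 CPM (SD, n = 5), it was 1.82-fold lower (log2 fold change -0.86, SE 0.14, adjusted p = 0.000623). Between IF16 and AL the log2 difference was -0.09 with a 95% interval of -0.38 to 0.20. Both Fads1 calls were kept in all 25 alternatives tried.

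Fads2, which catalyses the step before the elongation by Elovl5, stood at 262, 143, 175, 186 and 144 CPM in AL, at 194, 201, 140.4, 83.4 and 165.5 CPM in IF16, and at 149, 160.1, 182, 105.5 and 86.6 CPM in EOD. The 3 groups overlapped, with AL replicate 1 the highest library and IF16 replicate 4 the lowest. The log2 difference was -0.22 (95% interval -0.74 to 0.30) between IF16 and AL, -0.42 (-0.94 to 0.10) between EOD and AL, and -0.20 (-0.72 to 0.32) between EOD and IF16. Adjusted p was 0.694, 0.199 and 0.621. The interval of EOD against AL reaches about as low as the change of Fads1, and the difference between the 2 genes was not tested.

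Fads3, the sphingoid base desaturase next to Fads2, stood at 24.5, 47.5, 17.6, 31.45 and 9.93 CPM in AL, at 6.76, 11.7, 13.15, 5.98 and 12.15 CPM in IF16, and at 4.42, 5.54, 5.01, 6.63 and 6.39 CPM in EOD. AL ranged widely, at a CV of 54.8%, and its lowest library lay within the IF16 range but above every EOD library. EOD was tight, at a CV of 16.5%. The mean was 26.2 ± 14.4 CPM in AL, 9.95 ± 3.32 in IF16 and 5.60 ± 0.926 in EOD (SD, n = 5). Fads3 fell 4.68-fold in EOD against AL, the biggest fold of the 8 genes in any of the 3 comparisons (log2 fold change -2.23, SE 0.35, adjusted p = 0.000304), and this call was kept in all 25 alternatives. In IF16 against AL it fell 2.63-fold (log2 fold change -1.40, SE 0.34, adjusted p = 0.0349). That call was lost in 12 of 25 alternatives, of which 8 leave out 1 library. Without AL replicate 1, 2 or 4 the adjusted p was 0.0585, 0.0598 and 0.0694, and without any single IF16 library it was 0.0539 to 0.0788. Adjusted p was 0.0842 with no filter on low counts, 0.096 with the 2 groups alone, 0.0847 with the replicate number as a block and 0.1002 by limma on FPKM with no minimum. Between EOD and IF16 the log2 difference was -0.83 (95% interval -1.57 to -0.09, adjusted p = 0.116), and it passed in the DESeq2 Wald test (adjusted p = 0.045) and with the 2 groups alone (adjusted p = 0.0198).

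Elovl1, which lengthens saturated chains for sphingolipids, was the steadiest of the 8 genes within groups. It stood at 32.0, 32.9, 31.7, 34.9 and 35.95 CPM in AL, at 22.9, 22.65, 22.55, 21.05 and 21.2 CPM in IF16, and at 19.8, 17.2, 17.7, 20.1 and 19.3 CPM in EOD. The groups did not overlap in any of the 3 comparisons, with AL highest and EOD lowest. Between IF16 and AL it was the 1 member of 8 without overlap, where 5.78% of all genes showed this (2.59% higher, 3.19% lower). The SD of log2 CPM within groups lay at percentiles 4.4 (AL), 1.9 (IF16) and 5.2 (EOD) of the genes tested. Elovl1 fell 1.52-fold in IF16 against AL (log2 fold change -0.60, SE 0.08, adjusted p = 0.00057) and 1.78-fold in EOD against AL (log2 fold change -0.83, SE 0.08, adjusted p = 1.81e-06). Both calls were kept in all 25 alternatives, with log2 fold changes of -0.63 to -0.54 and of -0.85 to -0.75. Between EOD and IF16 the log2 difference was -0.23 (95% interval -0.40 to -0.06) at an adjusted p of 0.0595, which the DESeq2 Wald test moved to 0.0251.

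Elovl5, the elongase after Fads2, stood at 780, 752, 622, 227 and 259 CPM in AL, at 176, 523, 370.3, 305 and 316 CPM in IF16, and at 362, 477, 355, 337 and 269 CPM in EOD. AL fell into 2 parts, with replicates 4 and 5 below every EOD library and replicates 1 to 3 above every IF16 and EOD library. The SD of log2 CPM in AL lay at percentile 95.8 of the genes tested. With all libraries the log2 difference was -0.64 (95% interval -1.39 to 0.10, adjusted p = 0.350) between IF16 and AL and -0.55 (-1.30 to 0.19, adjusted p = 0.234) between EOD and AL. Without AL replicates 4 and 5 together, which also hold the high Saa1 levels, Elovl5 was lower in both, by -1.08 (adjusted p = 0.0319) and -0.97 (adjusted p = 0.00962). AL replicates 1 to 3 already lay above every IF16 and EOD library, so this setting restates the split and is no separate test of the regimens. Leaving out either library alone did not move either comparison past the threshold. The 12 acute phase genes summed to 11400 to 57540 CPM in AL, 14000 to 15820 in IF16 and 15550 to 20570 in EOD. The summed neutrophil markers were 28.3 and 27.1 CPM in AL replicates 4 and 5 against 1.23 to 1.63 CPM in the rest of AL. That sum was mostly S100a8 and S100a9, which reached 12.3 and 14.9 CPM in AL, with Cxcr2 at up to 1.90 CPM. Ly6g, Mpo and Elane were at no more than 0.068, 0.24 and 0.24 CPM in AL. The part of either list in the Elovl5 levels was not tested. EOD and IF16 differed by 0.09 (95% interval -0.65 to 0.83).

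Elovl2, which lengthens chains on the way to docosahexaenoate, stood at 424, 354, 372, 332 and 338 CPM in AL, at 352, 452, 369.6, 330.4 and 313 CPM in IF16, and at 445, 638, 482, 391 and 413 CPM in EOD. The EOD libraries overlapped the upper ends of both other groups, and EOD replicate 2 was the highest. Elovl2 rose 1.30-fold in EOD against AL, the smallest change of a member that passed (log2 fold change 0.38, SE 0.13, adjusted p = 0.0361). The call was lost in 9 of 25 alternatives. Adjusted p was 0.128 without EOD replicate 2, 0.0612 without EOD replicate 3, and 0.0644, 0.0521, 0.0769 and 0.0698 without AL replicates 2, 3, 4 and 5. It was 0.131 without AL replicates 4 and 5 together, 0.0535 with the 2 groups alone and 0.0839 by limma with no minimum. Against IF16 the log2 difference was 0.38 (95% interval 0.10 to 0.66, adjusted p = 0.0605) and passed in 6 of 25 alternatives, at adjusted p of 0.0248 to 0.0481, among them those without IF16 replicate 2, EOD replicate 4 or EOD replicate 5. Between IF16 and AL it was -0.004 (95% interval -0.29 to 0.28).

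Elovl3, an elongase of saturated and monounsaturated chains known in liver for a daily rhythm and a higher level in males, stood at 134, 84.2, 121, 65.8 and 68.6 CPM in AL. It stood at 40.5, 167, 132, 408 and 98.5 CPM in IF16, and at 221, 427, 288, 343 and 163.5 CPM in EOD. Every EOD library lay above every AL library, while IF16 spanned from below AL to near the top of EOD. The SD of log2 CPM in IF16 lay at percentile 99.8 of the genes tested. Elovl3 rose 3.04-fold in EOD against AL (log2 fold change 1.61, SE 0.49, adjusted p = 0.0215). Without AL replicate 5 the log2 fold change was 1.51 (adjusted p = 0.0511), without EOD replicate 2 it was 1.42 (adjusted p = 0.0528), and without AL replicates 4 and 5 together it was 1.38 (adjusted p = 0.0991). Between IF16 and AL the log2 difference was 0.84 (95% interval -0.20 to 1.87, adjusted p = 0.387), and without IF16 replicate 4 it was 0.19 (adjusted p = 0.844). Between EOD and IF16 it was 0.77 (95% interval -0.26 to 1.81, adjusted p = 0.299), and without IF16 replicate 4 it was 1.42 (adjusted p = 0.0309).

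Clock genes differed between the same libraries. Of 18 clock genes, 5 rose and 8 fell in EOD against AL, and 3 rose and 1 fell in IF16 against AL. Arntl, which encodes the clock activator BMAL1, and Dbp, an output of the clock, were picked from this list after their values were seen. Arntl was at 0.41 to 1.12 CPM in AL and 6.53 to 17.3 in EOD, and Dbp at 76.35 to 100.4 and 3.33 to 16.2. Within IF16 the libraries had the same order for Elovl3 and Arntl, which stood at 1.74, 5.01, 3.75, 9.74 and 2.295 CPM in replicates 1 to 5, and replicate 4 had the lowest Dbp, at 7.04 CPM. Within AL and EOD the orders differed. Male-biased liver genes summed to 4177 to 13330 CPM in AL, 4866 to 6351 in IF16 and 5916 to 13270 in EOD, and 4 of 10 fell in EOD against AL. The highest AL sums, 13320 and 13330 CPM, were in replicates 4 and 5, which had the lowest Elovl3 of AL. In EOD the lowest sum, 5916 CPM, was in replicate 5, which had the lowest Elovl3 of EOD. Mup20 alone averaged 5384 of a mean sum of 8369 CPM in AL, 2880 of 5467 in IF16 and 6090 of 8648 in EOD. These sums thus mostly follow Mup20. Of 7 tested female-biased genes 3 rose and 3 fell in EOD against AL. Over all libraries Xist was at 0 to 0.28 CPM and the Y-linked Ddx3y at 32.2 to 54.6 CPM. The part of the hour of harvest or of sex-biased expression in the Elovl3 levels was not tested.

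**Figure D3:**
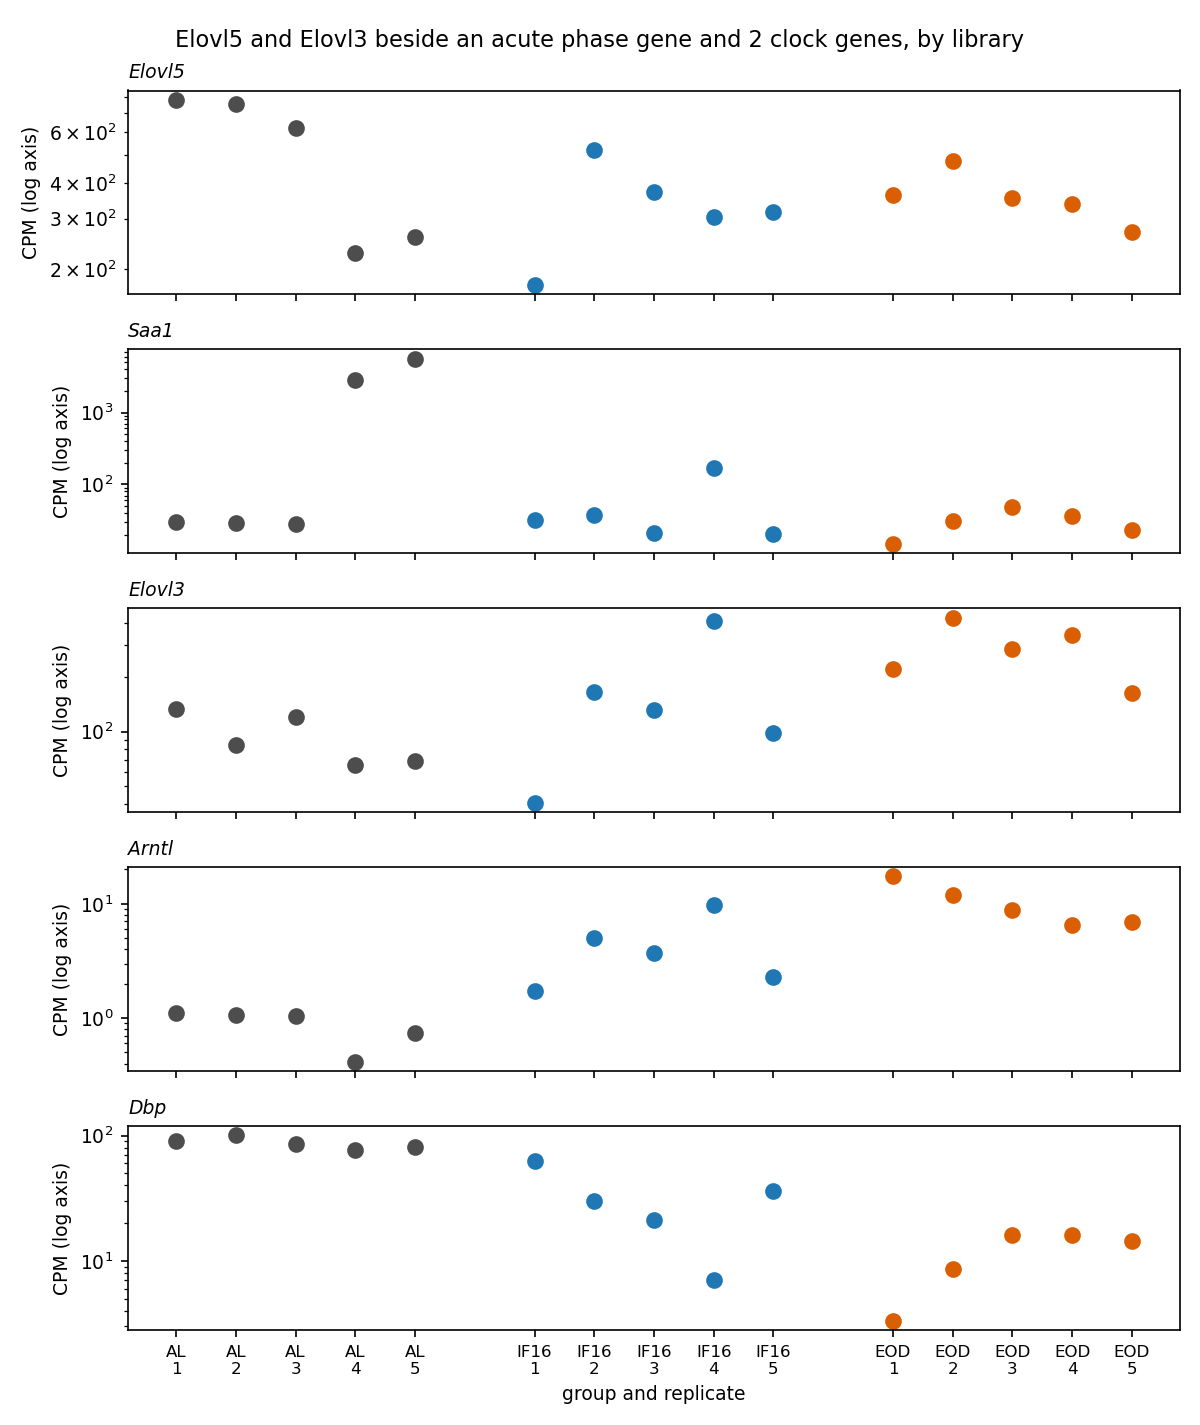
Levels of Elovl5, Saa1, Elovl3, Arntl and Dbp (y axes, CPM, log scale) in each library, by group and replicate. Elovl5 is low and Saa1 high in AL replicates 4 and 5. The order of Elovl3 matches that of Arntl within IF16 but not within AL or EOD. Saa1, Arntl and Dbp were picked after their values were seen.

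Scd2, a delta-9 desaturase that is the minor form in adult liver beside Scd1, had low counts. It stood at 3.86, 2.38, 3.26, 2.07 and 1.92 CPM in AL, at 2.94, 1.83, 2.498, 1.95 and 1.215 CPM in IF16, and at 1.66, 2.29, 2.275, 1.66 and 2.225 CPM in EOD, from 45 to 135 counts a library. The groups overlapped, and the highest libraries were AL replicates 1 and 3. Its log2 difference was -0.38 (95% interval -0.88 to 0.12) between IF16 and AL, -0.42 (-0.93 to 0.08) between EOD and AL, and -0.04 (-0.55 to 0.46) between EOD and IF16. The summed adipocyte markers (counts for 8 of 8) were at 28.9, 23.0, 25.1, 4.04 and 4.46 CPM in AL replicates 1 to 5, at 6.99 to 9.40 CPM in IF16 and at 7.64 to 13.3 CPM in EOD. They were thus high in AL replicate 2 as well, where Scd2 was at 2.38 CPM and Adipoq, the defining marker, had 0 counts. Adipoq had 1.06 CPM in AL replicate 1, 2.35 CPM in AL replicate 3 and no more than 0.38 CPM in the other libraries. The part of fat cells in the Scd2 level was not tested.

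**Figure D4:**
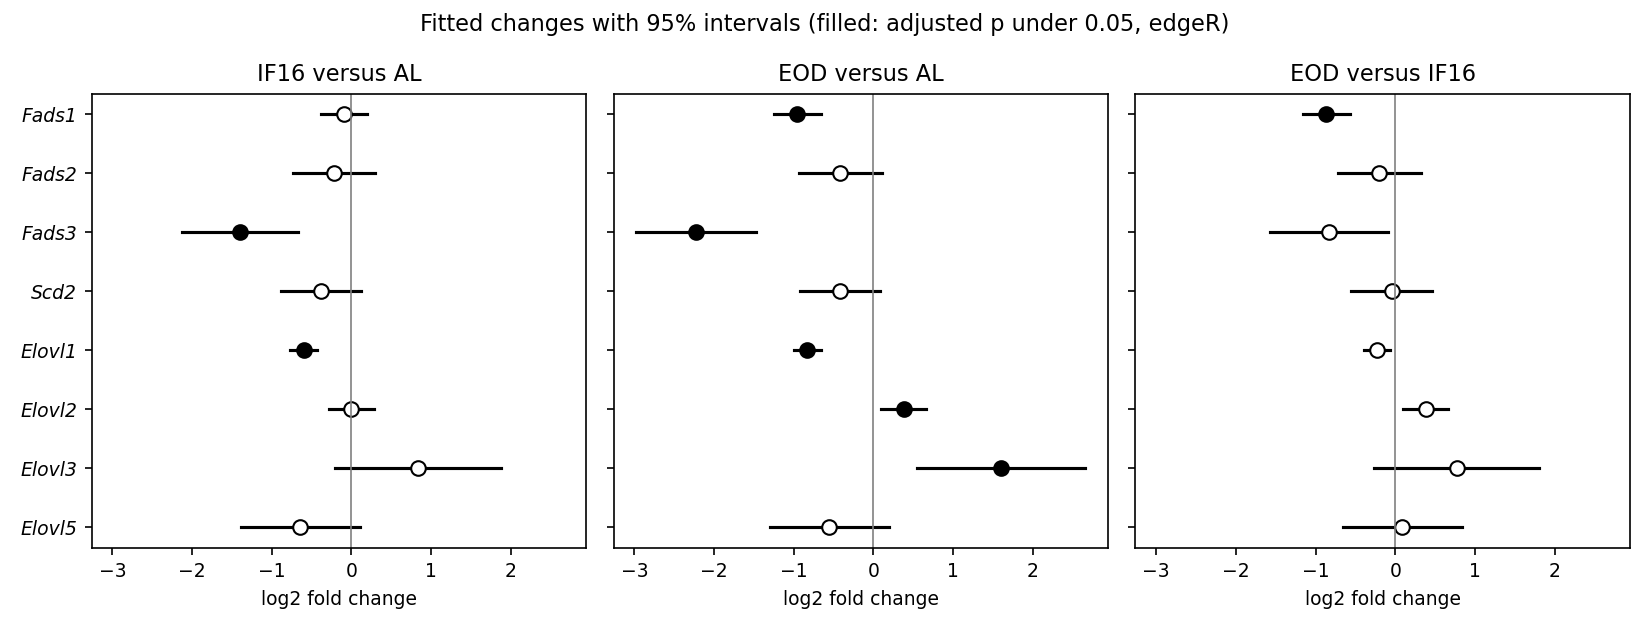
Fitted log2 fold changes (x axis) of the 8 genes with 95% intervals in the 3 comparisons, filled where the adjusted p was under 0.05. Fads3 and Elovl1 are filled to the left in both comparisons with AL, Fads1 in both comparisons of EOD, and Elovl2 and Elovl3 are filled to the right in EOD against AL only.

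Per length, on the FPKM scale, the 8 genes fell into a higher and a lower set in each group, relative to one another. Elovl1, in the lower set, was still at percentiles 83.4 (AL), 78.1 (IF16) and 75.1 (EOD) of the genes tested. Fads3 was at percentiles 71.0, 51.9 and 40.1 and Scd2 at 18.3, 14.9 and 15.2. In AL the mean FPKM was highest for Elovl5 (193 ± 102, SD, n = 5), then Fads2 (122 ± 35.5), Fads1 (120.1 ± 16), Elovl2 (96.5 ± 12.5) and Elovl3 (64.0 ± 22.3). Each neighbour in this order overlapped the next in its libraries. Elovl1 (18.5 ± 0.775), Fads3 (8.11 ± 4.57) and Scd2 (0.5 ± 0.166) followed without overlap with the gene above. In IF16 the order was Elovl5 (120.4), Fads1 (112), Elovl3 (112), Fads2 (104) and Elovl2 (95.4), and in EOD it was Elovl3 (191), Elovl5 (129), Elovl2 (124), Fads2 (89.7) and Fads1 (61.2). Again each of these overlapped its neighbour, so the order of adjacent genes is not set by these data. Genes farther apart could be told apart on the deposited lengths. Every Elovl3, Elovl5 and Elovl2 value of EOD (at least 117.2, 103.5 and 99.3) lay above every Fads1 value (at most 76.6). Elovl3 of EOD also lay above Fads2 (at most 114.5), and in AL Fads1 (at least 110.9) lay above Elovl3 (at most 93.9). Elovl1, Fads3 and Scd2 kept ranks 6, 7 and 8 in both, at 12.2, 3.02 and 0.38 FPKM in IF16 and 10.4, 1.71 and 0.37 in EOD. The FPKM of Fads2 rests on a deposited length of 1508 bases, where the union of its exons in GENCODE M21 has 3295, and with that length its means were 55.7, 47.7 and 41.1 in AL, IF16 and EOD. The union was longer for the other members too, by a ratio of 1.002 (Scd2) to 1.505 (Elovl1). With these lengths for all 8 genes the AL order was Elovl5 (152), Elovl2 (92.4), Fads1 (86.3), Fads2 (55.7) and Elovl3 (48.4). Elovl1, Fads3 and Scd2 kept ranks 6, 7 and 8 in each group. The summed FPKM of the 8 genes ranged from 448 to 861 in AL, 460.2 to 696 in IF16 and 465 to 795 in EOD, so the groups overlapped in the total.

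Of the 9 other elongases and desaturases 6 were tested. Against AL in EOD, Elovl6, which lengthens palmitate, fell 12.3-fold (log2 fold change -3.62, SE 0.41, adjusted p = 2.28e-05), and Scd1, the main delta-9 desaturase of liver, fell 2.38-fold (-1.25, SE 0.30, adjusted p = 0.0044). Fads6 also fell (-0.45), and Degs1, which makes ceramide from dihydroceramide, rose 1.74-fold (0.80, SE 0.12, adjusted p = 0.000127). In IF16 against AL 0 of 6 passed by edgeR (2 at an unadjusted p under 0.05, 1 by the DESeq2 Wald test and 0 by limma), and Fads6 had the smallest adjusted p (-0.42, adjusted p = 0.0598), which was 0.0208 in the DESeq2 Wald test. In EOD against IF16 Elovl6 fell (-3.27) and Degs1 rose (0.70).

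Of 12 genes of the elongation cycle and of electron supply, 6 fell and 2 rose in EOD against AL, with a median log2 fold change of -0.34. Acaca, which makes the malonyl-CoA that elongases add, fell 5.07-fold (log2 fold change -2.34, SE 0.23, adjusted p = 2.55e-06). Cyb5r3, the reductase that feeds electrons to desaturases through cytochrome b5, fell 2.32-fold (-1.22, SE 0.11, adjusted p = 9.02e-07), and Tecr, the last enzyme of the elongation cycle, fell 1.81-fold (-0.86, SE 0.10, adjusted p = 8.89e-06). The 2 that rose were the dehydratases Hacd1 and Hacd3. Against IF16, Cyb5r3 (-0.97), Acaca (-1.99), Tecr (-0.72) and Acacb (-1.87) fell and Hacd1 rose (0.65). In IF16 against AL 1 of 12 passed, Cyb5b, a cytochrome b5 of the mitochondrial outer membrane, which fell by 0.65 on the log2 scale at an adjusted p of 0.0380. That call was lost in 12 of 25 alternatives, among them the 8 that leave out 1 of AL 1, AL 3, AL 4, IF16 2, IF16 3, IF16 4, IF16 5 and EOD 2 (adjusted p 0.0507 to 0.104).

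Genes downstream of the 8 enzymes were mixed. Of 9 genes for the peroxisomal finishing of docosahexaenoate, 2 rose in EOD against AL. Ehhadh, the peroxisomal bifunctional enzyme, rose 4.69-fold (log2 fold change 2.23, SE 0.26, adjusted p = 1.49e-05), and Acaa1a rose by 0.20 at an adjusted p of 0.0495. The Acaa1a call was lost in 17 of 25 alternatives, with each library left out except IF16 replicate 1 and EOD replicate 5 (adjusted p 0.0505 to 0.102). Ehhadh also rose against IF16 (1.60), while between IF16 and AL 0 of 9 passed by edgeR (1 at an unadjusted p under 0.05, 0 by DESeq2 and 0 by limma) and its difference was 0.63 (adjusted p = 0.179). The list for activation and membrane insertion of polyunsaturated chains, which also holds the lipase-family gene Pnpla3, had 9 tested genes. Of these, 6 fell and 1 rose in EOD against AL. Acsl3 (-1.41) and Pnpla3 (-4.15) fell and Acsl1, which activates long chains mainly for oxidation and storage, rose (1.004). The Pnpla3 level in AL was uneven, at 7.10, 22.55, 1.70, 2.35 and 2.06 CPM. Without AL replicate 2 its log2 fold change was -3.04, and on the log2(FPKM + 1) scale it was -0.98, with the call kept in all 25 alternatives. Lpcat3, which inserts arachidonate into phospholipids, fell against IF16 (-0.48), as did Acsl3 (-1.02) and Lclat1 (-0.42), and Acsl1 rose (0.52). Without IF16 replicate 1 or 5 or EOD replicate 1 or 2 the Acsl1 call was lost (adjusted p 0.065 to 0.0876). In IF16 against AL only Pnpla3 passed by edgeR (-3.16, adjusted p = 0.0242), with a log2 fold change of -2.05 without AL replicate 2 and of -0.88 on the log2(FPKM + 1) scale. This call was lost in 9 of 25 alternatives, among them those without IF16 replicate 2, 3, 4 or 5 (adjusted p 0.0515 to 0.070). Of 4 tested ceramide synthases, Cers2, which uses the very long chains made by Elovl1, fell in EOD against AL (-0.40, adjusted p = 0.00789) and against IF16 (-0.38, adjusted p = 0.0230). The latter was lost when 1 of the libraries IF16 1, IF16 2 and EOD 4 was left out (adjusted p 0.053 to 0.0741). The other 3 did not pass. Between IF16 and AL 0 of 4 passed by edgeR, 0 at an unadjusted p under 0.05 and 0 by DESeq2 or limma, and Cers4 had the smallest adjusted p (0.34, adjusted p = 0.269).

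Of 13 regulators of lipid genes, 5 fell and 2 rose in EOD against AL. Srebf1 fell 11.2-fold (log2 fold change -3.48, SE 0.37, adjusted p = 1.30e-05), from 169 to 532 CPM in AL to 20.5 to 39.1 CPM in EOD, and Srebf2, the cholesterol regulator, fell 1.70-fold (-0.76, adjusted p = 0.000164). Ppara rose 1.89-fold (0.92, adjusted p = 1.93e-05). Insig1, Nr1h2 and Pparg also fell and Insig2 rose. In IF16 against AL 3 of 13 fell and 1 rose. Srebf2 fell by 0.57, Insig1 by 1.06 and, outside the rule for naming, Srebf1 by 1.34 on the log2 scale, at adjusted p of 0.0139, 0.0251 and 0.0441, and Ppara rose by 0.49 (adjusted p = 0.0222). The calls of Srebf2, Insig1 and Ppara were lost in 2, 8 and 7 of 25 alternatives. Insig1 lost its call when 1 of the libraries AL 1, AL 2, IF16 2, IF16 3, IF16 4 and IF16 5 was left out, at adjusted p of 0.0523 to 0.0697. Ppara lost it when 1 of AL 3, AL 5, IF16 2, IF16 3 and IF16 5 was left out, at 0.0546 to 0.0691. The Srebf1 call was lost in 12 of 25 alternatives, of which 9 leave out 1 library (AL 1, AL 2, AL 3, IF16 2, IF16 3, IF16 4, IF16 5, EOD 1 and EOD 2), at adjusted p of 0.0516 to 0.115. Against IF16, Srebf1 was lower in EOD (-2.14) and Insig2 (1.31) and Ppara (0.42) were higher.

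**Figure D5:**
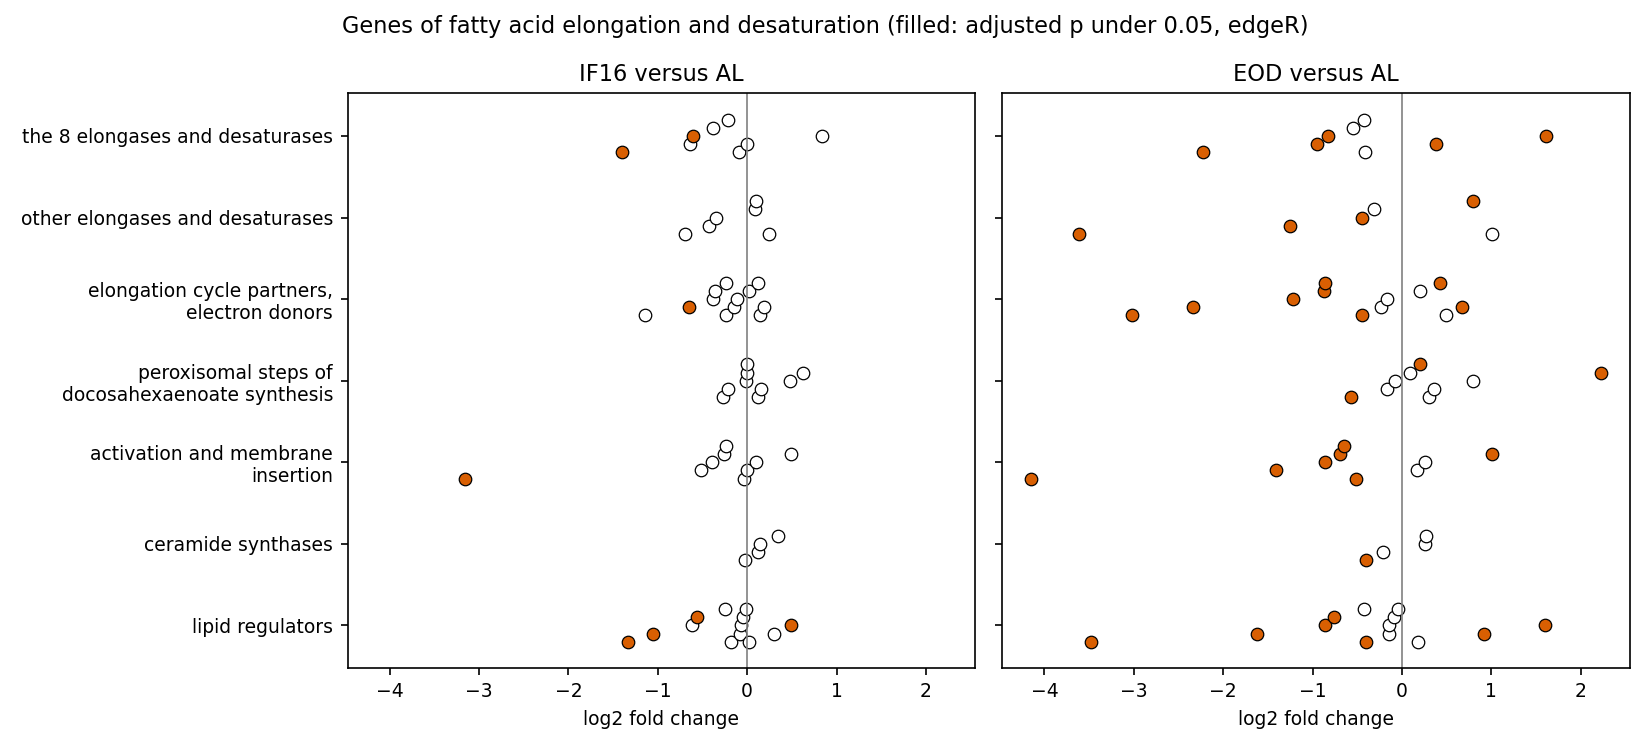
Log2 fold change (x axis) of each tested gene by list, in IF16 against AL and in EOD against AL, filled where the adjusted p was under 0.05. More points are filled in EOD against AL, with Pnpla3, Elovl6 and Srebf1 farthest to the left and Ehhadh farthest to the right.

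For each member that passed a comparison, the tested protein-coding genes with the most similar log2 CPM over the 15 libraries were found by Pearson's r among 12723 genes, as a description. The libraries share the group differences. For Fads1 these were Qdpr (r = 0.967), Tmem97 (0.960) and Cml5 (0.947), and for Fads3 they were Tbl3 (0.936), Camk4 (0.908) and Ankrd12 (0.901). Krt8 (0.978), Nelfe (0.970) and Whamm (0.962) were nearest to Elovl1. Nearest to Elovl2 were Cfl2 (0.901), Amt (0.901) and S1pr1 (0.886), and nearest to Elovl3 were Adck3 (0.949), Rtfdc1 (0.924) and Wibg (0.924). With each group's mean subtracted, Rtfdc1 again had the highest r with Elovl3 (0.942), followed by Hsd3b7 (0.923) and Pitx3 (0.922), while the nearest genes changed for Fads1 (Plekhf2, 0.908), Fads3 (March7, 0.848), Elovl1 (Ifi27l2b, 0.880) and Elovl2 (Acbd5, 0.877).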

How the data were processed

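Liver mRNA (poly-T beads, NEBNext Ultra libraries, per the labels' protocols) was sequenced in 15 libraries. The authors deposited raw whole-number counts per Ensembl gene. The FPKM values of the authors match, in 100% of values at a relative tolerance of 1e-08, each count scaled by gene length and library total. The submitters' processing notes list STAR 2.5, HTSeq 0.6.1, DESeq2 and mm10, with no role given. How strand was treated in counting is not given in the sources, and overlapping genes may share counts.

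The counts were tested with edgeR 4.0.16 under R 4.3.3. filterByExpr (minimum count 10) chose the genes, libraries were scaled by TMM, and all 15 entered 1 quasi-likelihood fit with a mean per group. Adjusted p is Benjamini-Hochberg over the 13837 genes tested, with a threshold of 0.05. Each SE was derived from the F statistic and the log2 fold change, and 95% intervals use the t quantile of the fit. A total of 3 counts corresponds to 0.0786 to 0.107 CPM. The fit was also run on simulated counts with known changes in a small share of the genes. That is a simpler case than these data, with no split inside a group, and its outcome is not given here.

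The members and lists were chosen with earlier results of these data known. All 8 members are named. Of each other list, up to 3 genes with the smallest adjusted p among those that passed are named, or 1 where none passed, and other names were chosen after their values were seen. A gene of the peroxisomal list is not reported here. All 191 list genes were found, 6 of them through the gene identifier because the table holds an older symbol (Hacd1 to Hacd4 among them).

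The 25 alternatives were DESeq2 size factors, the DESeq2 1.42.0 Wald test, no low-count filter, 1 CPM in 5 libraries, each of 15 libraries left out, a block on the replicate number, the 2 groups alone, AL replicates 4 and 5 left out together, and limma 3.58.1 on log2(FPKM + 1) or log2(FPKM + 0.1) at a mean FPKM of at least 0.5, or on log2(FPKM + 1) for every gene. AL replicates 4 and 5 were left out as a pair because their counts stood apart from the rest of AL. FPKM on GENCODE M21 exon lengths was added after seeing the data.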

Additional observations from a re-analysis of the deposited data

Results flagged for a closer look

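Fads1 in AL replicate 1 was at 490 CPM, above the other AL libraries at 377 to 406 CPM. The gap to the nearest library was 0.717 of the group's range, against a critical value of 0.71 for 5 libraries. It was 1 of 24 groups of 5 libraries examined (8 genes in 3 regimens), and chance marks about 1 in 20. Without this library the Fads1 calls of EOD against AL and against IF16 were kept.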

How the results depend on the processing

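The direction and call of Fads1 and Fads3 in EOD against AL, of Fads1 in EOD against IF16 and of Elovl1 in both comparisons with AL were kept under all 25 alternatives. Between IF16 and AL, 1 member passed in place of 2 with no low-count filter, with the 2 groups alone, with the replicate number as a block and by limma with no minimum, and 1 to 2 passed with a library left out. Without AL replicates 4 and 5 together 3 passed, with Elovl5 added, a setting that restates the split of Elovl5 within AL. Between EOD and AL the count was 3 to 5 with a library left out. It was 3 without AL replicate 5 and without EOD replicate 2. Between EOD and IF16 it was 4 by the DESeq2 Wald test, 2 with 1 CPM in 5 libraries, 2 with the 2 groups alone, 2 with the replicate block, and 1 to 2 with a library left out. Small differences changed sign. Elovl2 between IF16 and AL was 0.001 with no filter and -0.101 to 0.058 with a library left out. Elovl5 between EOD and IF16 was -0.052 to 0.309, and Scd2 was -0.189 to 0.133 with a library left out and 0.009 with the replicate block. The cause was not tested. The replicate numbers were not taken as pairs, since deviations of same-numbered libraries correlated at -0.13 to 0.218 between AL and IF16, -0.08 to 0.184 between AL and EOD and 0 to 0.142 between IF16 and EOD. With the replicate block the member count went from 2 to 1 between IF16 and AL, stayed at 5 between EOD and AL and went from 1 to 2 between EOD and IF16. Scd2 has no value from limma with a minimum mean FPKM of 0.5. At 45 to 135 counts a library, Scd2 was also limited by depth.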
